A study of Mus musculus with 8 samples.

Results

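Lcn2 and 9 genes that handle iron inside the cell were followed in 4T1 cells, a mouse mammary carcinoma line, carrying an shRNA against Etv5 or a control shRNA. The 10 genes were taken by symbol from the 24787 rows of the deposited table, and each had 1 row. Lcn2 was included because it had the largest decrease in this same contrast, so its values are given as a description with no test. The other 9 were chosen for their function, with results of these data already known.

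The study measured RNA in 8 libraries, 4 labelled Etv5 knockdown with an shRNA against Etv5 and 4 labelled WT with a control shRNA. All are cultures of the same line, and the labels name no other treatment. The column names give every library of a group the same construct, so each group appears to hold 1 shRNA, and nothing in the labels tells whether the 4 libraries of a group are separate cultures. P-values measure the spread among these libraries only, and that spread may be technical. The authors' values, called coverage values here, behave as mean coverage per base of a gene after scaling for depth, though no source states how they were made. Levels of different genes are set side by side on that reading, as values per length. Read depth is unknown.

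Iron enters most cells bound to transferrin through the receptor encoded by Tfrc, is reduced in the endosome by STEAP3 and leaves it through the transporter encoded by Slc11a2. Surplus iron is stored in ferritin, a shell of heavy and light chains, or exported through ferroportin, the product of Slc40a1. Lipocalin 2, the product of Lcn2, is a secreted protein that binds iron-loaded siderophores, is made by neutrophils and by many inflamed or transformed epithelia, and can be taken up through the receptor encoded by Slc22a17. The RNA-binding proteins IRP1 and IRP2, encoded by Aco1 and Ireb2, bind hairpins called iron-responsive elements when iron is scarce. A hairpin in the 5′ untranslated region then blocks translation, while hairpins in the 3′ untranslated region of Tfrc protect the transcript from decay.

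These hairpins are what sets the transcript of Tfrc and the translation of ferritin and ferroportin under 1 control, so they are printed here. The search took a C, any 5 bases, the loop CAGTGN with a last base other than G, and 5 bases that pair with the first 5, allowing G with T and at most 1 mismatch away from the loop. Of the 10 genes, 5 had a match in an annotated untranslated region and 5 (Lcn2, Slc22a17, Steap3, Aco1 and Ireb2) had none. Among all 22500 protein-coding genes 3.25% had at least 1 match. The sequences come from GENCODE mouse release 21 transcripts on mm10, written 5′ to 3′ on the transcript's strand as 30 bases each, with the loop in capitals.
Fth1, 5′ region, chr19:9982731-9982760, plus strand: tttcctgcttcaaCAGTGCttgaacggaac
Ftl1, 5′ region, chr7:45459779-45459808, minus strand: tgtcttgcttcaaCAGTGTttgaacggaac
Slc40a1, 5′ region, chr1:45925465-45925494, minus strand: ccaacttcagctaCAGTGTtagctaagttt
Slc11a2, 3′ region, chr15:100395153-100395182, minus strand: gagccatcagagcCAGTGTgtttctatggt
Tfrc, 3′ region, chr16:32631218-32631247, plus strand: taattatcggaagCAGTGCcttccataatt
Tfrc, 3′ region, chr16:32631597-32631626, plus strand: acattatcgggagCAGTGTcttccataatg
Tfrc, 3′ region, chr16:32631662-32631691, plus strand: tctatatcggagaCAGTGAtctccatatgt
Tfrc, 3′ region, chr16:32631709-32631738, plus strand: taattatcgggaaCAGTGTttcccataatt
The match of Slc11a2 has 1 mismatch in its stem and the other 7 have none. A match describes these letters and was not tested for binding.

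Etv5, the targeted gene, had coverage values of 13.04, 11.2, 7.52 and 12.7 in the Etv5 shRNA libraries, against 15.2, 15.1, 11.7 and 14.4 in the control shRNA libraries. The groups overlapped, and limma gave a log2 fold change of -0.33 with an adjusted p of 0.819. Without the third Etv5 shRNA library the groups still overlapped, and limma gave -0.17 with an adjusted p of 0.422. Gm4798, another annotated gene, shares 26.8% of the 50-base windows of Etv5. The third Etv5 shRNA library stood apart: its values summed to 390495, against 254792 to 308393 in the other 7 libraries. It read high in short transcripts and low in long ones, so results without it are given beside those over 8 libraries. Epithelial markers were detected in every library, with summed values of 1371 to 3205 in the Etv5 shRNA libraries and 1345 to 1829 in the controls. Fibroblast markers summed to 0.641 to 2.59 and 2.71 to 3.60, nearly all of it Pdgfra (0.519 to 2.15 and 2.54 to 3.54), with Dcn and Lum at 0 throughout. Endothelial markers summed to at most 0.125 and 0.0502. None of these markers was called over 8 libraries, though the groups did not overlap in Krt14 (12.97 to 29.5 and 9.82 to 12.9) or Pdgfra. Limma called Cdh1 higher and Pdgfra lower in the 7 libraries that remain without the third one of the Etv5 shRNA. The part of these markers in the results on iron genes was not tested.

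Lcn2 (chr2:32384633-32388252, minus strand of mm10) had coverage values of 1.48, 0.755, 2.24 and 1.45 in the Etv5 shRNA libraries, against 76.8, 74.7, 86.6 and 62.2 in the control shRNA libraries. The groups lay far apart, since the lowest control was 27.8-fold above the highest Etv5 shRNA library. The mean was 1.48 ± 0.605 with the Etv5 shRNA and 75.1 ± 10.01 with the control shRNA (SD, n = 4 each), a ratio of means 50.7-fold lower. Without the third Etv5 shRNA library the mean was 1.23 ± 0.411 (SD, n = 3), 61.1-fold lower.

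Among all tested genes, Lcn2 stood above 95.2% by its mean in the control libraries and above 13.1% by its mean in the Etv5 shRNA libraries. Its log2 fold change was -4.96 (SE 0.201) on the scale of value + 1, rank 1 of 11731 genes. Without the third Etv5 shRNA library it was -5.10 (SE 0.148) and again rank 1. Lcn2 was chosen for this decrease, so its rank follows from the choice and nothing is read from it. The relative spread was wider at the low level: the coefficient of variation was 40.9% with the Etv5 shRNA and 13.3% with the control shRNA. The library highest in Lcn2 was the third in both groups. 

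Neutrophils also make Lcn2, and a bulk library cannot tell fewer cells of a type from less RNA per cell. Of 13 neutrophil markers none passed the filter on low values, and Mpo, Elane, Cd177, Retnlg, Mmp8 and Csf3r were at 0 in all 8 libraries. The 13 together summed to 0.0792 to 0.751 in the Etv5 shRNA libraries and 0.522 to 0.891 in the control libraries, where Lcn2 alone read at least 62.2. Monocyte and macrophage markers summed to 6.24 to 7.78 and 7.73 to 9.86, nearly all of it Cd68 and Cd14, and Adgre1 and Marco were at 0 throughout. Erythroid markers, which would mark cells with high Tfrc, summed to 0.173 to 0.513 and 0.475 to 1.10, with Hbb-bs and Hbb-bt at 0 throughout.

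**Figure D1:**
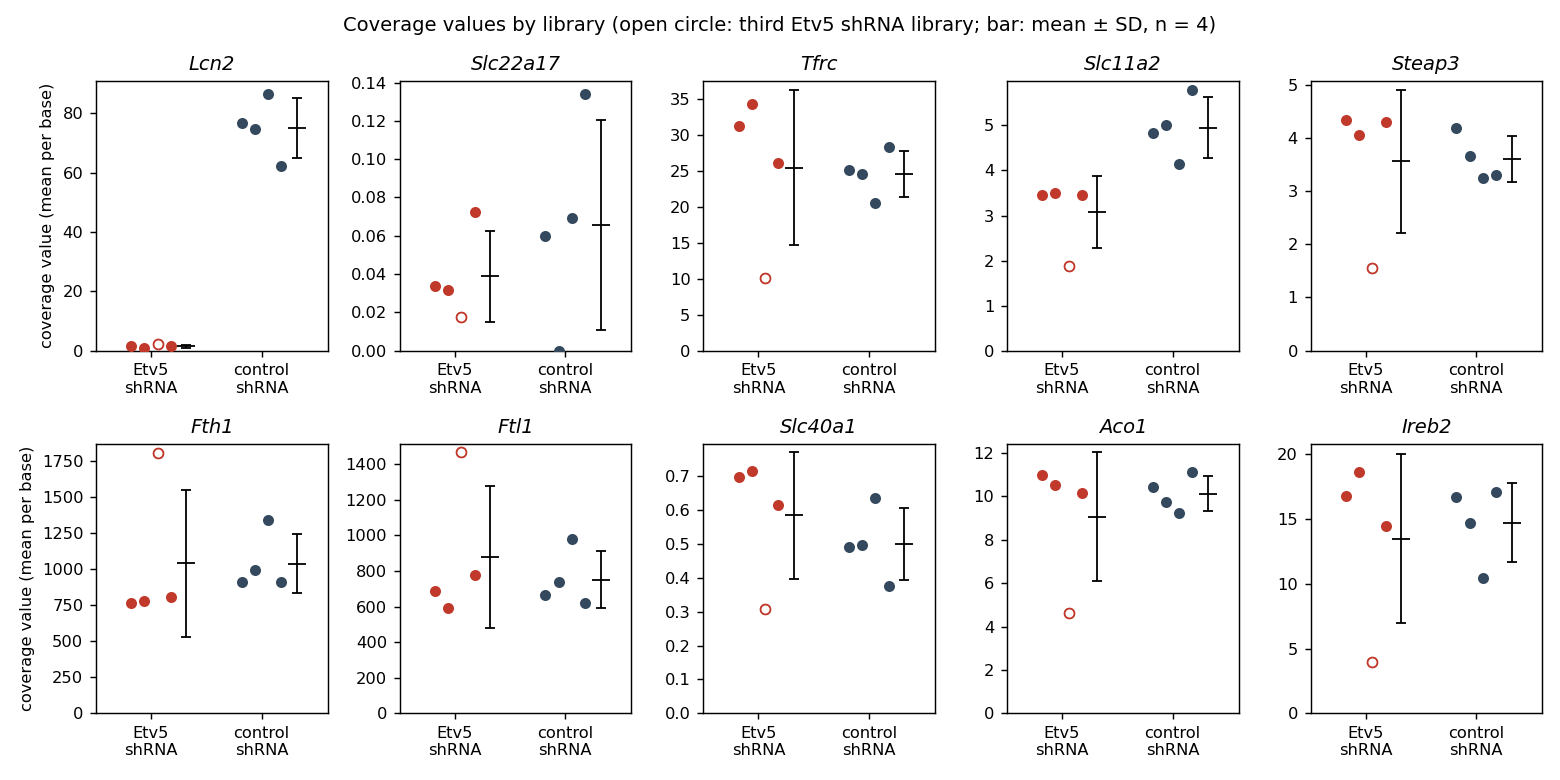
Coverage value (mean coverage per base) of each of the 10 genes in the 4 Etv5 shRNA libraries (red, the third as an open circle) and the 4 control shRNA libraries (dark), with mean ± SD. Lcn2 lies at 0.755 to 2.24 and 62.2 to 86.6, Slc11a2 does not overlap between groups, and the other 8 genes overlap.

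The genes nearest to Lcn2 by the root mean square difference over the 8 libraries, in log2(value + 1) less the control mean, were Cxcl5 (0.76), Cxcl1 (1.33), Csf3 (1.75), C3 (1.86) and Zc3h12a (1.90). These encode a pair of neutrophil chemokines, the granulocyte growth factor G-CSF, a complement component and an RNase. Each is lower in the same contrast, so the likeness is a description. Within the Etv5 shRNA group the third library had the top value in Lcn2 and in Csf3 (24.6, with 20.6 to 22.9 in the other 3) and the lowest in Cxcl5 (1.76), Cxcl1 (2.44), C3 (2.42) and Zc3h12a (1.35). The 10 genes followed here were left out of this search, so it does not tell how near to Lcn2 the other iron handling genes lie.

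Slc22a17, which encodes the lipocalin-2 receptor (chr14:54906304-54913132, minus strand), was near 0 in both groups. It read 0.0335, 0.0316, 0.0175 and 0.0725 with the Etv5 shRNA, against 0.0599, 0, 0.0692 and 0.134 with the control shRNA. It was the only 1 of the 10 genes under the filter of 0.5 in at least 4 libraries, and with no filter it was not called. Megalin, another receptor for lipocalin 2, is encoded by Lrp2, which was under the filter too, with means of 0.000818 and 0.00209.

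Of the 9 genes that passed the filter, limma called 1, Lcn2, over 8 libraries, where 0.494% of all genes tested were called (0.486% lower and 0.00852% higher), and 8 were not called. Without the third Etv5 shRNA library the count was also 1 of 9, where 3.14% of all genes were called (2.05% lower and 1.08% higher). Since Lcn2 was chosen from this contrast, nothing is read from that count. The groups did not overlap in 2 of the 9 (Lcn2 and Slc11a2), as in 9.1% of all genes tested (7.58% lower and 1.52% higher). Without the third Etv5 shRNA library they did not overlap in 3 (Fth1 in addition), as in 20.2% of all genes (10.4% lower and 9.76% higher). All 3 were lower with the Etv5 shRNA. The place of Lcn2 in these counts follows from how it was chosen, so nothing is read from it. Apart from Lcn2, only Slc11a2 did not overlap over 8 libraries, and Slc11a2 and Fth1 without the third Etv5 shRNA library.

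Among the uptake genes, Slc11a2, which encodes the ferrous iron transporter DMT1 (chr15:100387898-100425072, minus strand), read 3.46, 3.51, 1.88 and 3.45 with the Etv5 shRNA, against 4.83, 5.02, 4.15 and 5.79 with the control shRNA. Every Etv5 shRNA library was below every control, and 3 of them lay between 3.45 and 3.51. The mean was 3.07 ± 0.799 with the Etv5 shRNA and 4.95 ± 0.676 with the control shRNA (SD, n = 4 each). By limma the log2 fold change was -0.56 (95% interval -0.98 to -0.14), and it did not pass over all genes (adjusted p 0.455). Without the third Etv5 shRNA library the mean was 3.47 ± 0.0322 (n = 3), the log2 fold change -0.40 and the adjusted p by limma 0.0807. With each library's trend with transcript length removed over 8 libraries, limma gave -0.40 with an adjusted p of 0.0764. Only with both changes together, a setting added after the data were seen that calls 930 genes, did it pass (-0.43, adjusted p 0.0137 by limma). Of its exonic bases, 6.33% overlap Gm5475 on the opposite strand.

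Tfrc, which encodes transferrin receptor 1 (chr16:32608920-32632794, plus strand), read 31.2, 34.4, 10.2 and 26.1 with the Etv5 shRNA, against 25.2, 24.6, 20.6 and 28.3 with the control shRNA. The groups overlapped, and the third Etv5 shRNA library was 0.333 of the mean of the other 3. Limma gave -0.07 (95% interval -0.84 to 0.70, adjusted p 0.950) over 8 libraries and 0.30 (0.02 to 0.58, adjusted p 0.239) without that library, so the sign turned with it and neither fit passed. Steap3, the endosomal ferrireductase gene (chr1:120190757-120272705, minus strand), read 4.33, 4.04, 1.55 and 4.30 with the Etv5 shRNA, against 4.18, 3.65, 3.25 and 3.31 with the control shRNA. Its log2 fold change by limma was -0.07 (adjusted p 0.932), and 0.19 (adjusted p 0.342) without the third Etv5 shRNA library.

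Ferritin genes had the highest levels of the 10. Fth1, the heavy chain with ferroxidase activity (chr19:9980598-9985098, plus strand), stood above 99.8% of tested genes by its mean over 8 libraries. It read 769, 781, 1807 and 805 with the Etv5 shRNA, against 909, 993, 1340 and 909 with the control shRNA. In both groups the third library was on top, and the other 3 Etv5 shRNA libraries lay below every control. The log2 fold change by limma was -0.08 (adjusted p 0.937), and -0.38 (95% interval -0.76 to -0.00145, adjusted p 0.264) without the third Etv5 shRNA library, when the mean was 785 ± 18.01 (n = 3) with the Etv5 shRNA and 1038 ± 205 (n = 4) with the control shRNA. The difference did not pass the test in either fit.

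Ftl1, the light chain (chr7:45457944-45459884, minus strand), read 688, 589, 1465 and 775 with the Etv5 shRNA, against 664, 741, 977 and 621 with the control shRNA. The groups overlapped with and without the third Etv5 shRNA library. Limma gave 0.16 (adjusted p 0.897) over 8 libraries and -0.12 (adjusted p 0.752) without it. Other annotated genes, 15 in number with Ftl1-ps1 among them, share 78.9% of the 50-base windows of Ftl1, so its coverage is uncertain, and 34.6% of its exonic bases overlap other genes. For Fth1 the share was 2.88%.

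Slc40a1, the ferroportin gene (chr1:45908068-45926523, minus strand), was low, above 1.14% of tested genes by its mean. It read 0.697, 0.714, 0.309 and 0.614 with the Etv5 shRNA, against 0.491, 0.497, 0.634 and 0.376 with the control shRNA. The groups overlapped, and the log2 fold change by limma was 0.07 (adjusted p 0.892), and 0.16 (adjusted p 0.381) without the third Etv5 shRNA library.

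Neither regulator passed. Aco1, which encodes IRP1, a protein that is also cytosolic aconitase (chr4:40143081-40198338, plus strand), read 10.96, 10.5, 4.61 and 10.2 with the Etv5 shRNA, against 10.4, 9.71, 9.23 and 11.1 with the control shRNA. Apart from the third Etv5 shRNA library the 7 values lay between 9.23 and 11.1. Its log2 fold change without that library was 0.06 (95% interval -0.14 to 0.26, adjusted p 0.760 by limma). Ireb2, which encodes IRP2 (chr9:54863789-54912530, plus strand), read 16.8, 18.6, 4.00 and 14.5 with the Etv5 shRNA, against 16.7, 14.7, 10.4 and 17.03 with the control shRNA. Limma gave -0.27 (adjusted p 0.889) over 8 libraries and 0.18 (95% interval -0.18 to 0.54, adjusted p 0.576) without the third.

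**Figure D2:**
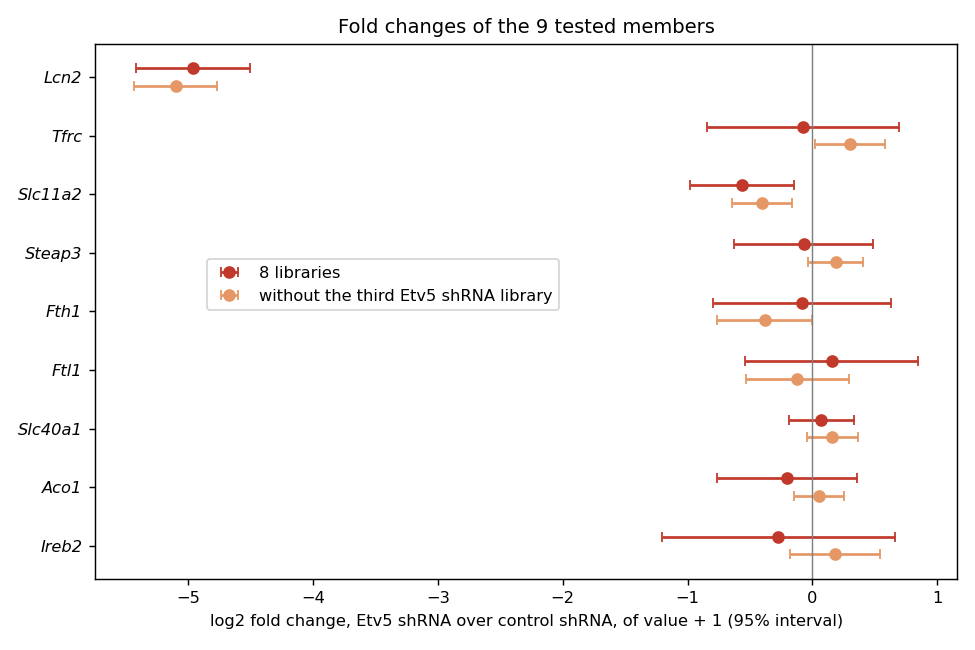
Log2 fold change of value + 1, Etv5 shRNA over control shRNA, with its 95% interval by limma, for the 9 genes that passed the filter, over 8 libraries (red) and without the third Etv5 shRNA library (orange). Lcn2 lies at -4.96 and -5.10, and the other 8 lie between -0.56 and 0.30, with narrower intervals once that library is left out. Lcn2 was chosen from this contrast, so its interval is a description and no test.

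By mean level, the order in the Etv5 shRNA libraries was Fth1 (1041), Ftl1 (879), Tfrc (25.5), Ireb2 (13.5), Aco1 (9.06), Steap3 (3.56), Slc11a2 (3.07), Lcn2 (1.48), Slc40a1 (0.583) and Slc22a17 (0.0388). In the control libraries it was Fth1 (1038), Ftl1 (751), Lcn2 (75.1), Tfrc (24.7), Ireb2 (14.7), Aco1 (10.1), Slc11a2 (4.95), Steap3 (3.60), Slc40a1 (0.499) and Slc22a17 (0.0658). By mean, Lcn2 thus stood below Slc11a2 in the Etv5 shRNA group and directly below the ferritins in the control group. In the third Etv5 shRNA library Lcn2 (2.24) was above Slc11a2 (1.88). Of neighbours in the Etv5 shRNA order, Ftl1 and Tfrc, Aco1 and Steap3, Lcn2 and Slc40a1, and Slc40a1 and Slc22a17 did not overlap in their ranges, and the others did. Of neighbours in the control order, Fth1 and Ftl1, Ireb2 and Aco1, and Slc11a2 and Steap3 overlapped in their ranges, and the other neighbours did not. Ranges mix libraries, and within each control library the first gene of these overlapping pairs was above the second. Within each Etv5 shRNA library Fth1 was above Ftl1 and Tfrc above Ireb2. The order of Ireb2 and Aco1, Steap3 and Slc11a2, and Slc11a2 and Lcn2 turned in the third library alone.

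The third Etv5 shRNA library was the lowest of its group in 7 of the 10 genes and the highest in 3, Lcn2, Fth1 and Ftl1. Those 3 have longest annotated transcripts of 1374, 2062 and 968 bases, and the other 6 tested genes have 3832 to 5770. That library read 2.30, 2.14 and 1.82 times the mean of the other 3 in Fth1, Ftl1 and Lcn2, and 0.241 times in Ireb2, the longest. Over the 9 tested genes its log2 deviation from the other 3 libraries had a correlation of -0.90 with the log of transcript length, and over 11561 genes with a known length one of -0.436. The third control library leaned the same way, at -0.869 over the 9 genes and -0.425 over all. The points of each correlation share a library.

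**Figure D3:**
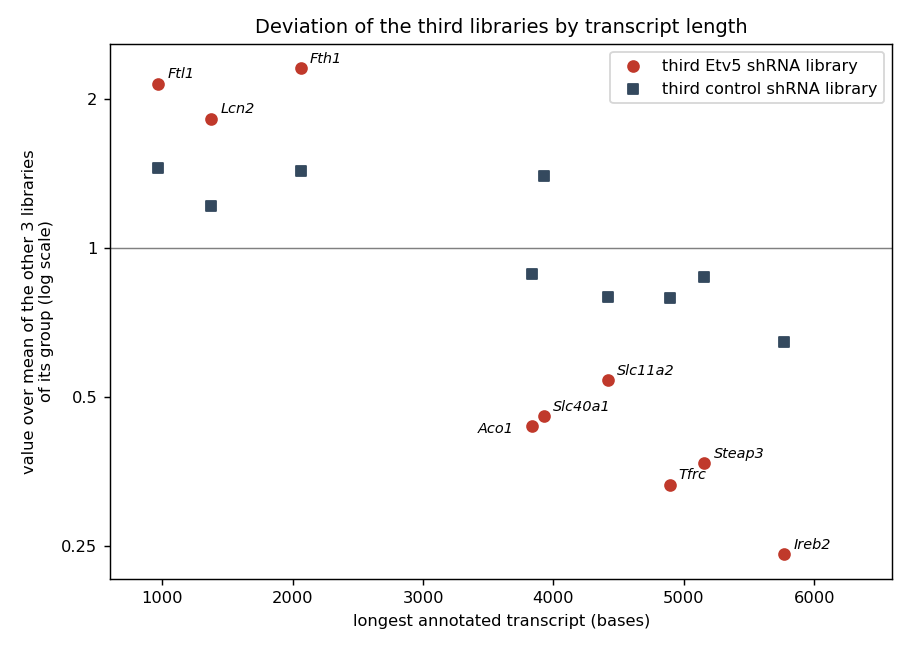
Value in the third library of each group over the mean of the other 3 libraries of that group (log axis), against the longest annotated transcript in bases, for the 9 tested genes. The third Etv5 shRNA library (red circles) lies at 1.82 to 2.30 in the 3 shortest and at 0.241 to 0.540 in the other 6, and the third control library (dark squares) at 0.647 to 1.45.

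Ratios of 2 genes within a library do not depend on how the libraries were scaled. They can still carry a library's trend with transcript length, which was not removed from them. A set of 3 such ratios was computed. The pairs were chosen after the values were seen, so the ratios are a description with no test. How often other pairs of genes separate the groups was not computed. Fth1 over Ftl1, heavy over light ferritin chain, was 1.12, 1.33, 1.23 and 1.04 with the Etv5 shRNA, against 1.37, 1.34, 1.37 and 1.46 with the control shRNA. All 4 Etv5 shRNA libraries were below all controls, the third among them, with means of 1.18 ± 0.126 and 1.39 ± 0.0531 (SD, n = 4 each). Since most of the sequence of Ftl1 is shared with other annotated genes, this ratio is uncertain.

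Tfrc over Slc11a2, the receptor over the transporter of the same uptake route, was 9.03, 9.81, 5.43 and 7.58 with the Etv5 shRNA, against 5.21, 4.90, 4.96 and 4.89 with the control shRNA. It was higher in all 4 Etv5 shRNA libraries than in any control, with the third nearest to them. The means were 7.96 ± 1.93 and 4.99 ± 0.150 (SD, n = 4 each), and 8.81 ± 1.13 with the Etv5 shRNA without the third library (n = 3). Slc11a2 alone was already lower without overlap, and the ratio does not tell which of the 2 genes differs. Aco1 over Ireb2 was 0.653, 0.566, 1.15 and 0.701 with the Etv5 shRNA, against 0.625, 0.661, 0.885 and 0.652 with the control shRNA, and the groups overlapped.

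**Figure D4:**
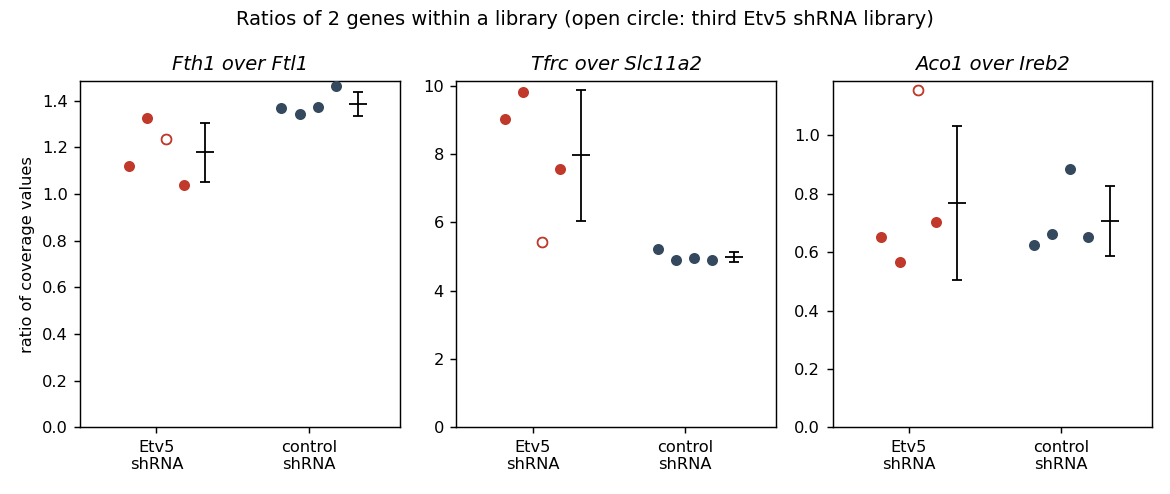
Ratio of coverage values of 2 genes within each library, for the 4 Etv5 shRNA libraries (red, the third as an open circle) and the 4 control shRNA libraries (dark), with mean ± SD. Fth1 over Ftl1 lies at 1.04 to 1.33 and 1.34 to 1.46, Tfrc over Slc11a2 at 5.43 to 9.81 and 4.89 to 5.21, and Aco1 over Ireb2 overlaps.

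Other genes of iron and heme handling were taken from 4 lists chosen by function, with 76 genes in the table and 60 tested. Over 8 libraries limma called 1 of the 60, Steap4, as lower and none as higher, where 0.494% of all genes tested were called, and 59 were not called. Steap4 passed the filter only through the control libraries, where it read 0.822 to 1.27, so nothing is read from that count. The 60 had a median log2 fold change of -0.03, against -0.11 for all genes tested. Without the third Etv5 shRNA library 3 were called lower (Steap4, Cp and Ppox), 1 higher (Cpox) and 56 were not called, where 2.05% of all genes tested were called lower and 1.08% higher. The medians were then -0.03 for the 60 and -0.00288 for all genes. Over 8 libraries the groups did not overlap in 8 of the 60, all lower with the Etv5 shRNA, a share of 13.3%, against 7.58% of all tested genes that were lower without overlap. In the 7 libraries without the third Etv5 shRNA one, 11 were lower without overlap and 3 were higher (Cpox, Flvcr1 and Abcg2), where the shares of all genes were 10.4% and 9.76%. Steap4 is also among the genes called lower without that library and among those lower without overlap in both settings. For the same reason nothing is read from its part in those counts.

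In the list on uptake, export and storage, 1 of 15 tested genes, Steap4, was called over 8 libraries, where 0.494% of all genes were, and 14 were not. The median log2 fold change of the 15 was -0.24, and -0.03 without the third Etv5 shRNA library. For all genes tested the medians were -0.11 and -0.00288. Steap4 encodes a metalloreductase of the same family as STEAP3. It read 0.0136, 0, 0 and 0 with the Etv5 shRNA, against 1.27, 0.982, 0.893 and 0.822 with the control shRNA, so it was listed at 0 in 3 libraries. Its fitted log2 fold change depends on the pseudocount, at -0.98 with 1 and -3.38 with 0.1, and the level was low throughout. Since it met the filter through the controls alone, these values are a description, and with a filter at 1 it was not tested.

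Cp, which encodes the ferroxidase ceruloplasmin, read 6.27, 6.64, 2.08 and 4.92 with the Etv5 shRNA, against 18.01, 14.1, 10.8 and 16.9 with the control shRNA. Every Etv5 shRNA library was below every control, at means of 4.98 ± 2.07 and 14.9 ± 3.21 (SD, n = 4 each), 3.00-fold lower. By limma it was not called over 8 libraries (log2 fold change -1.48, SE 0.301, adjusted p 0.119) and fell in the fit without the third Etv5 shRNA library (-1.18, SE 0.166, adjusted p 0.00627) and in the 8-library fit after removal of the length trend (-1.31, adjusted p 0.00671).

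Other genes of that list were not called. The STEAP genes Steap1 (25.1 ± 4.21 and 24.1 ± 5.73) and Steap2 (13.8 ± 6.19 and 16.6 ± 2.25) overlapped between groups (SD, n = 4 each), at adjusted p 0.916 and 0.879 by limma. So did Ncoa4, the receptor that delivers ferritin to lysosomes (12.7 ± 5.83 and 14.2 ± 0.430, adjusted p 0.879). Fbxl5, an iron-sensing ubiquitin ligase subunit that directs IRP2 to degradation, read 15.3 ± 4.45 and 20.1 ± 0.739, without overlap, and was not called (adjusted p 0.806 by limma). Hfe, a partner of the transferrin receptor, read 0.881 ± 0.225 and 1.48 ± 0.251, without overlap and not called (adjusted p 0.438). Hamp, Trf, Tfr2, Heph, Cybrd1 and Ltf were among 14 genes of the list under the filter.

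Among heme genes none of 18 was called over 8 libraries, at a median of -0.03. Slc48a1, a heme transporter gene, read 15.9 ± 2.58 with the Etv5 shRNA and 20.7 ± 0.798 with the control shRNA (SD, n = 4 each), without overlap. Ppox, which encodes protoporphyrinogen oxidase, read 6.01, 4.25, 6.65 and 4.87 with the Etv5 shRNA, against 7.95, 7.26, 8.89 and 7.10 with the control shRNA, without overlap. Its log2 fold change by limma was -0.46 (adjusted p 0.502) over 8 libraries and -0.55 (adjusted p 0.0436) without the third Etv5 shRNA library. Cpox, which encodes coproporphyrinogen oxidase, the enzyme of the step before, read 29.8, 28.8, 5.98 and 31.1 with the Etv5 shRNA, against 20.5, 23.0, 20.3 and 21.8 with the control shRNA. In Cpox 3 Etv5 shRNA libraries lay above every control and the third far below.

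By limma Cpox stood at -0.07 (adjusted p 0.964) over 8 libraries and rose without the third Etv5 shRNA library (0.47, adjusted p 0.0170). Hmox1, the inducible heme oxygenase gene, read 6.04 ± 1.15 with the Etv5 shRNA and 6.13 ± 0.629 with the control shRNA (SD, n = 4 each, adjusted p 0.957 by limma). Alas1, the first enzyme of heme synthesis, read 7.79 ± 0.0842 and 7.90 ± 0.804 (adjusted p 0.971 by limma).

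None of 18 genes for mitochondrial iron and iron-sulphur clusters and none of 9 for cytosolic iron-sulphur assembly was called, with or without the third Etv5 shRNA library. Log2 fold changes over 8 libraries ran from -0.55 to 0.40 and from -0.23 to 0.23. The lowest was Slc25a37, the mitochondrial iron importer mitoferrin 1, at 23.4 ± 7.39 with the Etv5 shRNA and 33.7 ± 6.45 with the control shRNA (SD, n = 4 each, adjusted p 0.768 by limma). Isca1 and Iba57, late factors of cluster assembly, were lower without overlap and not called (adjusted p 0.765 and 0.713 by limma).

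**Figure D5:**
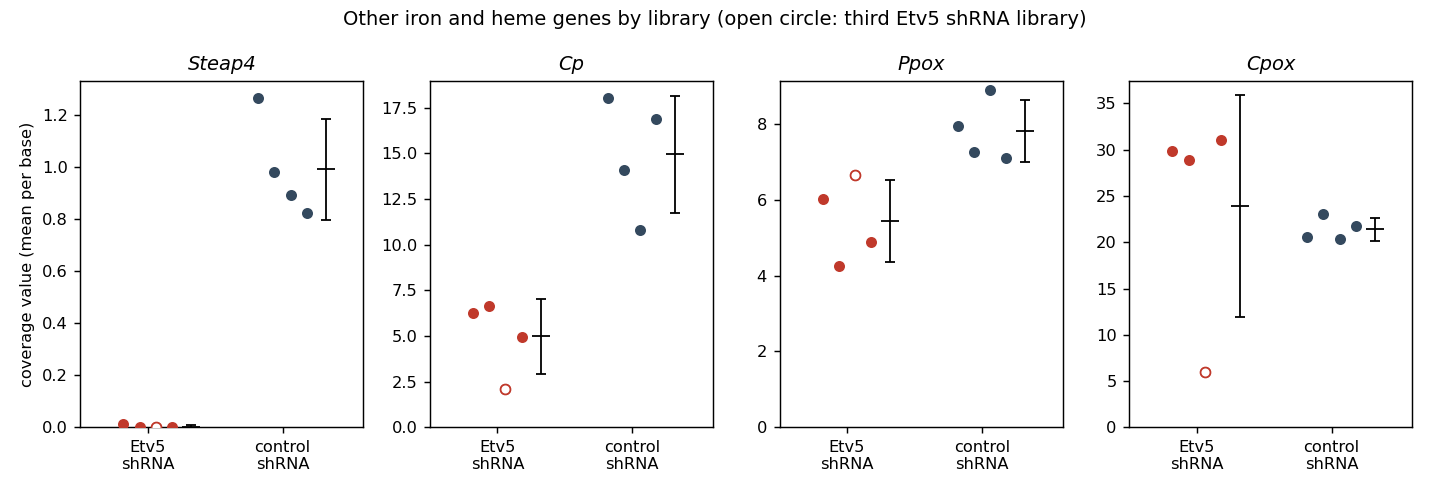
Coverage value of 4 other iron and heme genes in the 4 Etv5 shRNA libraries (red, the third as an open circle) and the 4 control shRNA libraries (dark), with mean ± SD. Steap4, Cp and Ppox lie below the controls in all 4 Etv5 shRNA libraries, and Cpox lies above them in 3 and at 5.98 in the third.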

How the data were processed

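RNA from cultured cells was isolated with either of 2 reagents, per the labels, and libraries were made with a TruSeq RNA kit and sequenced on a NovaSeq instrument. STAR 2.7.10a and the build mm10 are named in the submitters' processing notes. The authors deposited a coverage signal, 8 columns named after coverage tracks per the file headers, and its values behave as a gene's average coverage per base after scaling for depth. Which program and annotation made it is not given in the sources used here, and no read depth could be recovered, so no counting interval is given.

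The 10 genes, the lists and the tests were chosen with earlier results of these data known. Samples were grouped by title. Values were transformed as log2(value + 1), and 11731 of 24787 genes reached the filter (a value of 0.5 in 4 or more libraries). The comparison used limma 3.58.1 (R 4.3.3) with its trend option on all 8 libraries and without covariates. Benjamini-Hochberg adjustment ran over every tested gene, and an adjusted p under 0.05 was a call. The fit was tested on simulated data with independent normal spread, of a size taken without the third Etv5 shRNA library. Those data held no trend with transcript length, so they do not tell how the fit behaves with that library. Of 81 entries in 4 lists of other iron genes, 5 had no row under that symbol. Genes named from those lists were those called over 8 libraries or without the third Etv5 shRNA library, up to 4 a direction by adjusted p. The genes nearest to Lcn2 were the 5 with the smallest root mean square difference. They came from tested genes outside the 10 whose higher group mean reached 5. The other list genes given with values were picked for mention after their values were seen. Ratios of 2 genes are given with no test. Transcript lengths, coordinates and hairpins come from GENCODE mouse release 21, on mm10, and the length of a gene is that of its longest transcript.

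Alternatives were scaling by median of ratios or to equal sums, a filter at 1 or none, 0.1 as pseudocount, a replicate block, subtraction of a lowess trend with transcript length from each library (span 0.3), and leaving out each library. The ratios, and removal of the length trend in 7 libraries, were added after the data were seen.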

Additional observations from a re-analysis of the deposited data

Results flagged for a closer look

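Each group of 4 libraries was screened in each of the 10 genes with Dixon's test (gap over range, 95% critical value) for a value set apart. Of 20 groups 4 passed, where chance gives about 1 in 20, and all 4 values came from the third library with the Etv5 shRNA. It was the lowest of its group in Slc11a2 (1.88, ratio 0.964), Steap3 (1.55, ratio 0.896) and Aco1 (4.61, ratio 0.873), and the highest in Fth1 (1807, ratio 0.966). Transcript length moved with these values, as given above, and its part in them was not tested. The 4 values share 1 library, so they are not independent of each other and the chance rate does not apply to them as a set.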

How the results depend on the processing

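Lcn2 kept its direction in all 16 alternatives, at log2 fold changes of -5.65 to -4.80. That is a description, since Lcn2 was chosen for its decrease in these same libraries. The count of called genes over all genes, 58 (1 higher, 57 lower), was 37 at a pseudocount of 0.1, 117 after removal of the length trend (23 higher, 94 lower), 28 to 368 with a library left out (368, of them 127 higher, for Etv5 shRNA replicate 3, and 28 to 37 for any other) and 930 with the length trend removed and that library left out (418 higher). Median-of-ratios scaling gave 7 higher and 49 lower, and it moved the median over all genes to 0.022, against -0.11. The count among the 9 tested iron handling genes was 1 in every alternative except the last of these, where it was 2 (Lcn2 and Slc11a2). Among the other iron genes the count of 1 was 0 with a filter at 1, 2 with the length trend removed (Cp and Steap4), 2 with the replicate block (Cp in addition, adjusted p 0.0284 by limma), 1 to 4 when 1 library was left out and 7 with the length trend removed and the third Etv5 shRNA library left out. Slc40a1 and Steap4 had no value with a filter at 1.

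Genes that limma did not call over 8 libraries turned in sign under some alternatives, and the cause was not tested. With median-of-ratios scaling Tfrc was at 0.092, Steap3 at 0.048, Fth1 at 0.094 and Cpox at 0.086. With the length trend removed Tfrc was at 0.10, Steap3 at 0.11 and Cpox at 0.048. Without the third Etv5 shRNA library Tfrc was at 0.30, Steap3 at 0.19, Ftl1 at -0.12, Aco1 at 0.057, Ireb2 at 0.18 and Cpox at 0.47, and with the length trend also removed Tfrc was at 0.26, Steap3 at 0.14, Aco1 at 0.040, Ireb2 at 0.11 and Cpox at 0.47. Fth1 was at 0.03, 0.02 and 0.0061 without Etv5 shRNA replicates 1, 2 and 4, and at 0.047 without control replicate 3. With 1 library left out at a time Tfrc ran from -0.25 to 0.30, Steap3 from -0.17 to 0.19, Fth1 from -0.38 to 0.047, Ftl1 from -0.12 to 0.32, Aco1 from -0.31 to 0.057, Ireb2 from -0.48 to 0.18 and Cpox from -0.27 to 0.47. The difference of means of Aco1 over Ireb2 was 0.0627 over 8 libraries and -0.0656 to 0.130 with 1 left out, the lowest without the third Etv5 shRNA library.

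Same-numbered libraries deviated from their group means with correlations of 0.549, 0.0924, 0.794 and 0.51, and some differently numbered ones were as high (Etv5 shRNA 1 and 2 with control 4, 0.691 and 0.693). As the second pair did not exceed 0.1, the numbers were not taken to pair the samples. With the replicate block 51 genes were called. Read depth is unknown, so counting error cannot be told apart from other spread.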
